A study of Oryza sativa with 21 samples.

Results

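Long merged m5C regions are stretches of the rice genome in which RNA m5C immunoprecipitation peaks from seedlings, pooled over 6 peak lists, joined into 1 region of 1000 bases or more. The regions were chosen by the positions and lengths of these same peaks: peaks that overlapped or touched were merged, and regions on unplaced contigs were left out. The rule kept 12581 regions of 111849 merged regions in all, which is 11.5% of the 109167 regions on the 12 chromosomes. The other 96586 placed regions were shorter than 1000 bases. OE1, a DRW1 overexpression line with the genotype DRW1-OE, gave 3 of the lists, and ZH11, labelled WT, gave the other 3. All seedlings were chamber-grown and sampled 3 weeks after germination. The lists analysed here cover no other overexpression line, and the labels do not give the promoter that drives DRW1. Grain samples of the study are not analysed here.

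5-Methylcytosine, abbreviated m5C, is a methyl mark that enzymes of the NSUN family and DNMT2 place on cytosines of RNA. It is best known from transfer and ribosomal RNA, and messenger RNA carries it too. In plants, loss of the methyltransferase TRM4B, a relative of animal NSUN2, alters root growth in Arabidopsis. In the immunoprecipitation, RNA fragments are pulled down with an antibody against m5C and sequenced beside an input library. A peak marks a stretch in which pulled-down fragments pile up, and it does not resolve single cytosines.

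The lists held 90132 to 94379 peaks in OE1 and 67984 to 79303 in ZH11. They give no read depth, so the precision that depth gives to each peak is unknown. Each list stands for a pair of libraries, pulled down and input, that share a replicate number. The labels do not tie replicates to separate plants. A p-value here therefore reflects list-to-list spread alone, which may be technical. ZH11 replicate 2 stood apart: inside long regions its covered bases overlapped those of the other 5 lists with a Jaccard index (shared bases over bases in either) of 0.400 to 0.430. The same index was 0.744 to 0.766 between OE1 lists and 0.638 between ZH11 replicates 1 and 3. Between OE1 lists and ZH11 replicate 1 it was 0.697 to 0.713, and between OE1 lists and ZH11 replicate 3 it was 0.578 to 0.604. ZH11 replicate 1 thus had a higher index with each OE1 list than with either other ZH11 list. The peak files name no genes, and the sources used here do not give their build, so no gene or sequence is assigned to a region. Coordinates below are those of the files, counted from 1.

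The median long region spanned 1345 bases, with quartiles at 1125 and 1787 bases and a maximum of 13062. Other placed regions had a median of 289 bases. Long regions added up to 20.3 Mb, or 36.8% of the 55.2 Mb that all placed regions spanned. Most were only moderately long: 7742 of them (61.5%) measured under 1500 bases. A further 2558 measured from 1500 to under 2000, 1595 from 2000 to under 3000, 559 from 3000 to under 5000, and 127 measured 5000 or more. In 9949 regions (79.1%) at least 1 list held a single peak of 1000 bases or more, and in 3278 of these exactly 1 list did. In the remaining 2632 regions (20.9%) no list held such a peak, and the length arose only from joining shorter peaks of different lists. A median of 9 peaks from the pooled lists made up a long region, against 3 in other placed regions.

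The length limit cut through a continuous distribution. There were 2657 regions of 1000 to under 1100 bases just inside it and 2784 of 900 to under 1000 bases just outside. Of the 29 regions of exactly 1000 bases, the first by name lay on chromosome 1 at 763426 to 764425. Its OE1 lists covered 649, 487 and 828 bases and its ZH11 lists 367, 254 and 332. The next, on chromosome 10 at 3192044 to 3193043, was likewise joined from shorter peaks of different lists. The last of the 3 described, on chromosome 10 at 16398818 to 16399817, was spanned whole by the 1000-base peak of OE1 replicate 3. Another 39 regions were 1 base too short, and the first 3 of these lay on chromosome 1, at 13049327 to 13050325, at 13801401 to 13802399 and at 29861468 to 29862466. Their longest peaks measured 995, 988 and 705 bases.

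Of the 12581 long regions, 11734 (93.3%) were held by all 6 lists, meaning that each list had at least 1 peak in the region. Among all placed regions the share was 31.2%. The share went up with length on both sides of the limit. It was 74.8% in regions of 800 to under 1000 bases, 90.1% in those of 1000 to under 1500 and 97.2% in those of 1500 to under 2000. Of the 770 long regions held by exactly 5 lists, 585 lacked a peak in ZH11 replicate 2, 128 in ZH11 replicate 3 and 47 in ZH11 replicate 1, and 77 regions were held by 2 to 4 lists. With ZH11 replicate 2 set aside, 12319 regions were held by all 5 remaining lists. A peak with q below 0.05 in each of the 6 lists was present in 8372 long regions (66.5%, against 16.6% of all placed regions). At least 50% of the bases were covered in each list in 2234 (17.8%, against 7.79% of all placed regions). A long region is joined from the pooled peaks of these same lists, a median of 9 peaks against 3 in other placed regions. Presence in a list is therefore not independent of the rule, and these shares are a description only.

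Base by base, the lists agreed less than region by region. All 6 lists covered 4.64 Mb of the long regions (22.9% of their bases) and 5 lists a further 5.62 Mb (27.7%). A single list covered 2.23 Mb (11.0%). In other placed regions all 6 lists covered 10.5% of the bases and a single list 31.2%.

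OE1 lists filled the long regions more completely than ZH11 lists did. OE1 replicates 1, 2 and 3 covered 16.6, 15.3 and 17.1 Mb of them, against 14.1, 8.08 and 11.3 Mb in ZH11 replicates 1, 2 and 3. That is 80.6% ± 4.52 of long-region bases in OE1 and 55.0% ± 14.9 in ZH11 (SD, n = 3 lists each), and the groups did not overlap. Without ZH11 replicate 2 the ZH11 mean was 62.6%. These bases are the measure that chose the regions, so the values are a description and no test was made.

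As a share of all the placed bases a list covered, the order was the other way. Long regions took up 42.9%, 44.1% and 42.0% of the covered bases in the OE1 lists, against 49.1%, 45.2% and 47.5% in the ZH11 lists. Every OE1 value lay below every ZH11 value, by 4.23 percentage points on average. OE1 lists covered 34.7 to 40.6 Mb in all and ZH11 lists 17.9 to 28.7 Mb. When each list was shortened to its 67984 peaks of smallest q, an alternative chosen after seeing the data, the difference shrank to −0.31 percentage points.

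**Figure D1:**
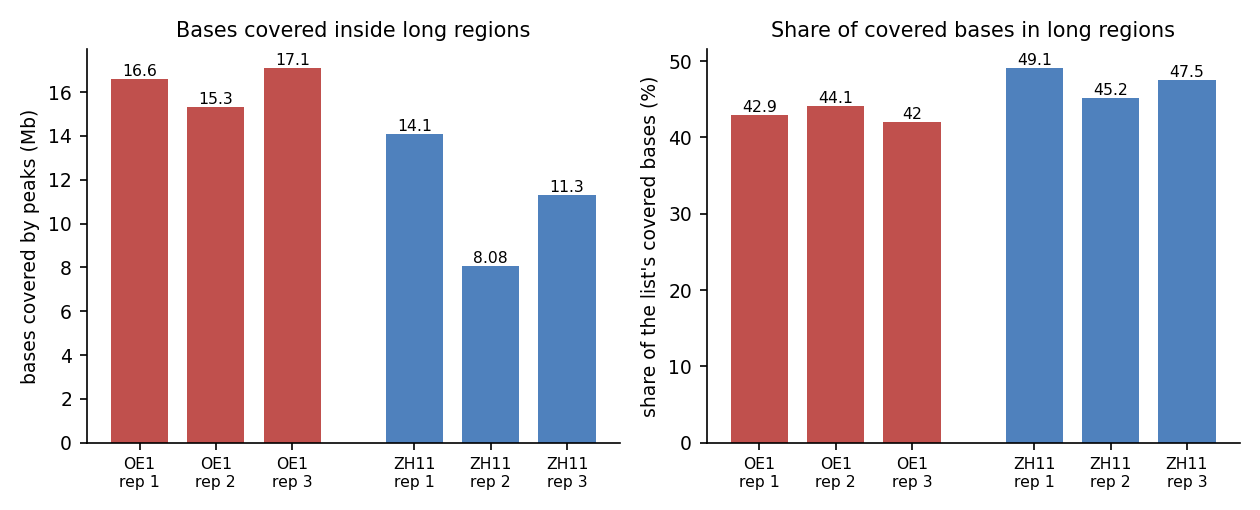
Bases (Mb) that each peak list covered inside long regions, at left, and the same bases as a percentage of all placed bases the list covered, at right, with 1 bar per list. OE1 lists cover 15.3 to 17.1 Mb and ZH11 lists 8.08 to 14.1 Mb, whereas the percentage is 42.0 to 44.1 in OE1 and 45.2 to 49.1 in ZH11.

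Region by region, the 3 OE1 lists each covered more bases than any ZH11 list in 5489 long regions (43.6%), against 22.6% of all placed regions. The opposite order was found in 33 long regions (0.262%), against 0.529% of all placed regions. Without ZH11 replicate 2 the first count was 5830 (46.3%, against 25.6% of all placed regions), and the opposite order was found in 122 (0.970%, against 1.64%). The share climbed with length below the limit, being 3.73% in regions under 200 bases, 20.3% from 200 to under 400, 30.3% from 400 to under 600, 35.1% from 600 to under 800 and 37.7% from 800 to under 1000. Within long regions it was 42.5% below 1500 bases, 49.7% from 3000 to under 5000, and 41.7% at 5000 or more. The shares in long regions thus followed on from those in shorter ones. Covered bases are also the measure that chose the regions. Merged alone, the OE1 lists gave 11444 such regions and the ZH11 lists 6456. The higher share in long regions is therefore not independent of the rule, and no test was made. When each list was shortened to its 67984 peaks of smallest q, every OE1 list covered more bases than any ZH11 list in 4327 long regions. This alternative was chosen after seeing the data, and its share over all placed regions was not computed.

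Coverage was lowest at the margins of a region in each list. The ends of a region are the outermost peak edges of the pooled lists. Lower coverage at the margins therefore follows from the merging rule, and the values are a description only. In the outermost 5% of a region's length at either end, OE1 lists covered 49.8%, 42.4% and 54.0% of the bases, against 28.6%, 16.3% and 23.6% in ZH11 lists. In the middle the OE1 lists covered 87.9%, 81.8% and 89.8% and the ZH11 lists 77.3%, 46.4% and 63.9%. The curves of the groups did not cross at any of the 10 distances compared. Because the strand of the RNA is not given in the files, the 2 ends of a region could not be told apart and were averaged.

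**Figure D2:**
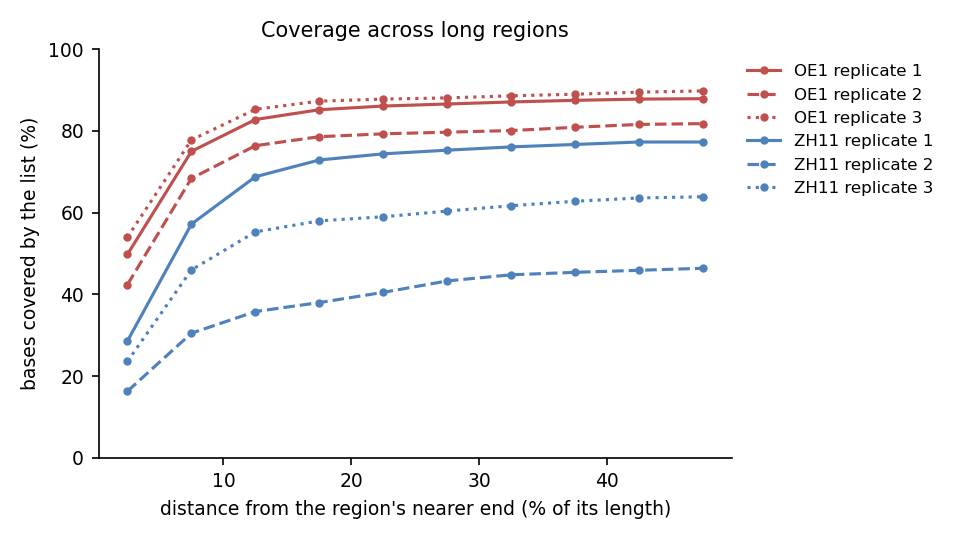
Percentage of bases covered by each list against the distance from the nearer end of a long region, in steps of 5% of its length and averaged over all 12581 regions. The OE1 curves reach 81.8% to 89.8% in the middle and lie above the ZH11 curves, which reach 46.4% to 77.3%. Lower coverage toward the ends follows from the merging rule.

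The lists also differed in how they broke the same region into peaks. Exactly 1 peak of the list lay in 59.9%, 43.9% and 61.8% of the long regions held by OE1 replicates 1, 2 and 3. In ZH11 replicates 1, 2 and 3 the share was 50.7%, 41.7% and 32.8%. These ranges overlapped, OE1 replicate 2 lying below ZH11 replicate 1. Such a peak need not span the region: ZH11 replicate 2 covered a median of 37.4% of a long region. Regions with 4 or more peaks of the list made up 2.82%, 6.25% and 1.90% in OE1, against 4.20%, 7.34% and 9.96% in ZH11. Peaks in long regions had a median length of 789, 528 and 877 bases in the OE1 lists, against 537, 266 and 313 bases in the ZH11 lists. The gap between neighbouring peaks of a list within a region had a median of 193, 176 and 192 bases in OE1 and of 218, 276 and 197 bases in ZH11.

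Whether a region held a single peak of 1000 bases or more varied widely between lists. OE1 replicates 1, 2 and 3 had such a peak in 6868, 4937 and 7400 long regions, against 4397, 678 and 1710 in ZH11 replicates 1, 2 and 3. All 3 OE1 lists had one in 3561 regions and all 3 ZH11 lists in 203, and all 6 lists in 166. When the OE1 lists were merged alone they gave 11444 placed regions of 1000 bases or more, and the ZH11 lists alone gave 6456. The longest of these measured 13062 bases in OE1 and 6387 in ZH11.

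**Figure D3:**
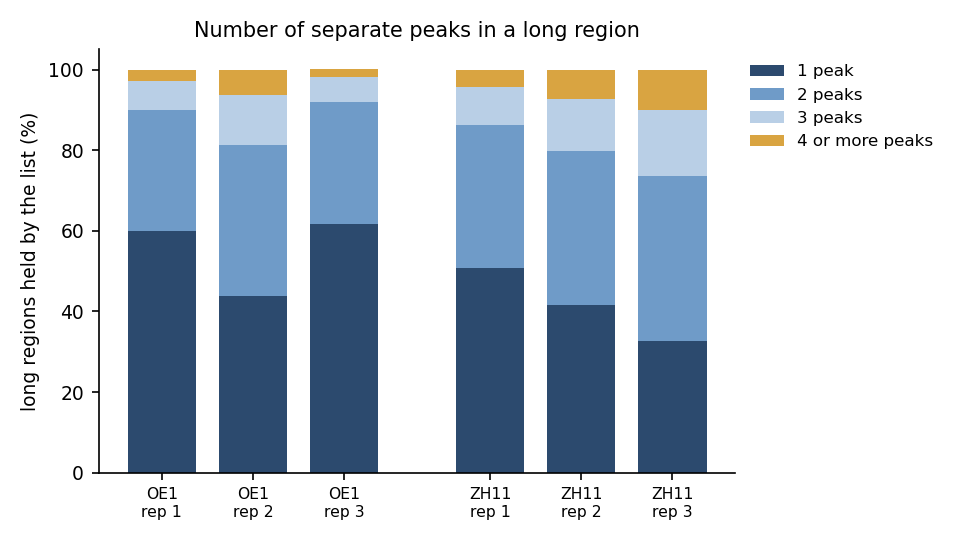
Percentage of the long regions held by each list in which the list had 1, 2, 3, or 4 or more separate peaks, stacked to 100% with 1 bar per list. Regions with exactly 1 peak of the list make up 43.9% to 61.8% in OE1 lists and 32.8% to 50.7% in ZH11 lists, and the ranges overlap. That peak need not span the region.

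The 10 longest regions measured 10188 to 13062 bases and each was held by all 6 lists. The longest lay on chromosome 2 at 23038040 to 23051101. OE1 lists covered 11218, 10164 and 11902 of its 13062 bases in 8, 14 and 6 peaks, against 9459, 6712 and 7329 bases in 13, 13 and 15 peaks in ZH11 lists. Here the groups did not overlap in covered bases, and no single peak exceeded 5810 bases. The next, on chromosome 8 at 27361491 to 27373990, was covered over 10706, 10594 and 11804 bases in OE1 lists, against 10980, 6184 and 8287 in ZH11 lists. In that region ZH11 replicate 1 lay within the OE1 range.

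A region on chromosome 7 at 22895947 to 22908218 was covered over 11148, 10743 and 11024 bases in OE1 and 10254, 5138 and 7197 in ZH11. On chromosome 3, the region at 8658894 to 8671154 contained a single OE1 replicate 2 peak of 7946 bases with an enrichment of 12.7, one of the 3 longest peaks of any list. The longest peak in it measured 5791 bases in ZH11 replicate 1 but 674 in ZH11 replicate 2. On chromosome 6, the region at 25604125 to 25615849 was covered over 9173, 8745 and 10349 bases in OE1, against 9382, 5173 and 7684 in ZH11.

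Of the other 5, chromosome 1 held those at 439 to 12359, 29519760 to 29530064 and 28888000 to 28898187. Chromosome 2 held those at 34130492 to 34141469 and 29484226 to 29494476. Across the 10, every OE1 list covered more bases than any ZH11 list in 5, beside 43.6% of all long regions and 22.6% of all placed regions. In the others of the 10, ZH11 replicate 1 reached into the OE1 range while ZH11 replicates 2 and 3 lay below it. On the chromosomes not yet named, the longest regions measured 9654 bases on chromosome 5 (5583090 to 5592743), 8767 on chromosome 11 (18486973 to 18495739), 8650 on chromosome 9 (3776692 to 3785341), 8391 on chromosome 4 (4621449 to 4629839), 7057 on chromosome 10 (11886172 to 11893228) and 6025 on chromosome 12 (1164202 to 1170226).

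The region on chromosome 1 at 439 to 12359 differed most between the groups among the 10 longest. OE1 replicate 1 spanned 11877 of its 11921 bases in 1 unbroken peak, the longest of any list on the chromosomes, and OE1 replicate 2 held the next longest, of 9295 bases. OE1 lists covered 11877, 11737 and 11069 bases in 1, 2 and 6 peaks, against 5262, 4286 and 6749 bases in 11, 9 and 14 peaks in ZH11 lists. That is 97.0% of the region in OE1 and 45.6% in ZH11 on average. The strongest peak in it had an enrichment of 5.08, 6.88 and 5.65 in OE1 lists and 7.87, 8.42 and 9.54 in ZH11 lists. Enrichment is the authors' own value per peak and describes peaks within a list only.

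Because that region lies near the start of its chromosome, the outermost region at each end of the 12 chromosomes was then examined, a choice made after its values were seen. The region itself is not among them, because a region of 210 bases at 67 to 276 precedes it. Of these 24 outermost regions 7 were long, and in each of the 7 every OE1 list covered more bases than any ZH11 list. That order was found in 43.6% of all long regions and 22.6% of all placed regions. The first region of chromosome 5, at 44 to 7988, was covered over 7942, 6783 and 7072 bases in OE1, against 2486, 2041 and 3099 in ZH11. For the first region of chromosome 7, at 27 to 6383, the lists covered 6132, 4714 and 5139 bases in OE1 and 1913, 1834 and 1743 in ZH11. The lowest OE1 list thus lay far above the highest ZH11 list in both regions.

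At the other end of chromosome 2, at 35756789 to 35762982, OE1 lists covered 5951, 4138 and 5670 bases and ZH11 lists 1223, 413 and 1321. The first region of that chromosome, at 282 to 3209, had 2133, 2309 and 2738 covered bases in OE1 and 1170, 1036 and 1386 in ZH11. The last region of chromosome 3, at 37010149 to 37016567, also ranked 3 among long regions by mean log2 enrichment. OE1 lists covered 6241, 6298 and 6086 of its bases in 2 peaks each, against 3883, 3629 and 3976 in 6 peaks each in ZH11 lists. The remaining 2 were the last region of chromosome 4 (35658516 to 35659876) and the first of chromosome 12 (11 to 1712).

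**Figure D4:**
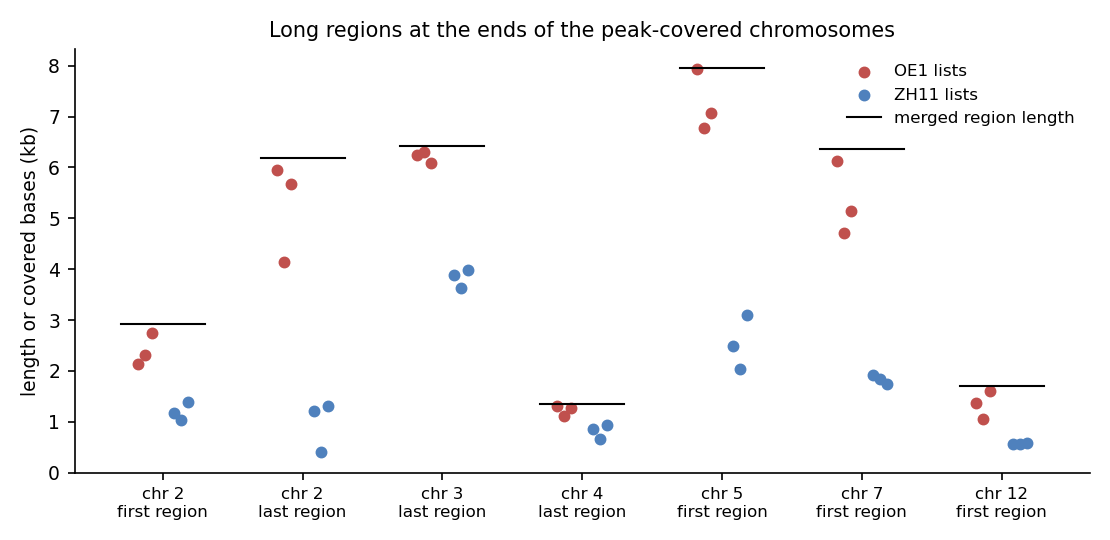
Bases (kb) covered by each OE1 and ZH11 list in the 7 long regions that are the first or last region of a chromosome, with the length of the merged region as a black line. In each region the OE1 points lie above the ZH11 points, as for the first region of chromosome 5 with 6783 to 7942 bases in OE1 and 2041 to 3099 in ZH11.

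Within 20000 bases of the first coordinate or of the last peak end of a chromosome there were 59 long regions, with a median length of 2026 bases. In 38 of them (64.4%) every OE1 list covered more bases than any ZH11 list, beside 43.6% of all long regions and 22.6% of all placed regions. The opposite order was found in 1, beside 0.262% of all long regions and 0.529% of all placed regions. The 59 include the chromosome 1 region that prompted the choice and the 7 outermost long regions described above. The median share of the region covered was 89.0%, 77.8% and 84.1% in OE1 lists and 56.8%, 38.5% and 52.4% in ZH11 lists near the ends. In all other long regions it was 84.7%, 77.6% and 86.8% in OE1 lists and 72.1%, 37.4% and 56.8% in ZH11 lists. ZH11 replicate 1 differed most between these sets, being lower near the ends, while OE1 replicate 1 and ZH11 replicate 2 were slightly higher there. The distance was chosen after values were seen, and no test was made.

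Regions held by 1 genotype only were rare among long regions. OE1 lists alone held 13 (0.103%, against 26.5% of all placed regions), and ZH11 lists alone held 0 (against 6.49%). These shares are not independent of the merging of the same lists and are a description only. The longest of the 13 lay on chromosome 6 at 5328444 to 5329673, where the OE1 lists covered 1216, 559 and 918 of 1230 bases. Its strongest peaks had an enrichment of 3.64, 4.08 and 2.90 in the OE1 lists, below the median strongest peak of long regions in each of them (4.98, 5.29 and 5.10). The next were chromosome 11, 21375882 to 21377104, and chromosome 1, 16767571 to 16768752. They had mean enrichments of 2.89 ± 0.438 and 2.91 ± 0.281 (SD, n = 3 lists).

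The enrichment and q of a peak were not used directly to choose the regions, and they were compared within each list. Every placed peak that reaches the length minimum lies in a long region by the rule, so other regions hold only shorter peaks. Enrichment rose with peak length in each list, as given below. The comparison over all peaks is therefore not independent of the rule, and its p-value does not separate region from peak length. Peaks in long regions had a median enrichment of 4.31, 4.28 and 4.55 in OE1 lists and of 3.79, 3.61 and 3.67 in ZH11 lists. Peaks in other placed regions had 3.30, 3.48 and 3.15 in OE1 lists and 3.26, 3.34 and 3.28 in ZH11 lists. The difference in median log2 enrichment, long minus other, was positive in 6 of 6 lists and averaged 0.28 ± 0.15 (SD, n = 6 lists; exact two-sided sign-flip permutation p = 0.0312, the smallest that 6 lists can give). When only peaks of 300 to 600 bases were compared, inside and outside long regions, the difference was 0.03, positive in 4 of 6 lists (exact permutation p = 0.188). Against other regions held by all 6 lists it was 0.08, positive in 5 of 6 lists (exact permutation p = 0.0625). Neither of these narrower comparisons passed the threshold of 0.05.

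Longer peaks were the stronger ones in each list. Long-region peaks of 1000 bases or more had a median enrichment of 5.19, 5.69 and 5.34 in OE1 lists and 4.77, 4.58 and 5.07 in ZH11 lists, and those under 200 bases had 2.97, 3.08 and 2.90 in OE1 and 2.99, 3.33 and 3.19 in ZH11. For peaks under 200 bases outside long regions the medians were 2.97, 3.08 and 2.90 in OE1 and 2.99, 3.34 and 3.19 in ZH11. In this length class the medians inside and outside long regions differed by at most 0.01. Among peaks of 200 to under 300 bases they were 3.24, 3.48 and 3.36 in OE1 lists and 3.23, 3.34 and 3.43 in ZH11 lists inside long regions. Outside, they were 3.14, 3.48 and 3.15 in OE1 lists and 3.14, 3.34 and 3.28 in ZH11 lists. Peaks of this class were thus higher inside long regions in 4 of 6 lists and equal in OE1 replicate 2 and ZH11 replicate 2. Peaks of 600 to under 1000 bases showed no common direction. Inside long regions their medians were 4.47, 4.88 and 4.61 in OE1 lists and 4.28, 4.24 and 4.50 in ZH11 lists. Outside, the medians of that class were 4.47, 4.90 and 4.51 in OE1 lists and 4.36, 4.18 and 4.64 in ZH11 lists. The median −log10 q was higher in long regions in 5 of 6 lists and equal in ZH11 replicate 2 (mean difference 0.86 ± 0.58, SD, n = 6 lists; exact two-sided sign-flip permutation p = 0.0625). The share of long-region peaks with q below 0.05 was 89.1%, 90.0% and 89.8% in OE1 lists, against 78.9%, 63.3% and 74.3% in ZH11 lists. Among peaks of other placed regions it was 76.5%, 81.3% and 71.4% in OE1 lists, against 63.7%, 56.7% and 65.8% in ZH11 lists. The share was thus higher in OE1 lists both inside and outside long regions.

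**Figure D5:**
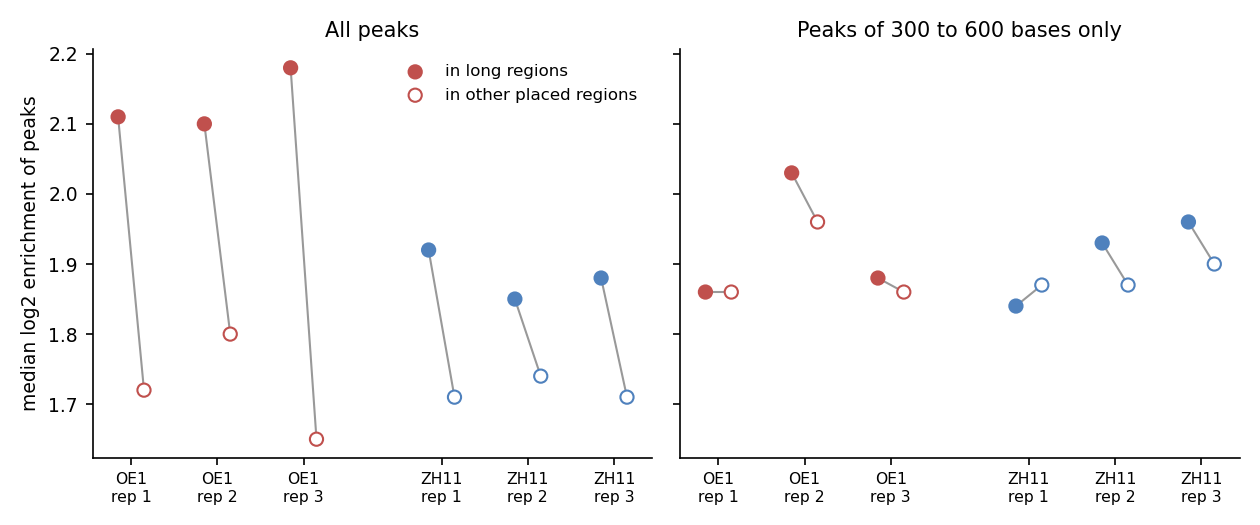
Median log2 enrichment of peaks in long regions (filled) and in other placed regions (open) in each list, for all peaks at left and for peaks of 300 to 600 bases at right; the axis does not start at 0. The mean difference is 0.28 over all peaks and 0.03 among those of 300 to 600 bases.

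The within-list difference was wider in OE1 lists, at 0.38, 0.30 and 0.53, than in ZH11 lists, at 0.22, 0.12 and 0.16. The means were 0.40 ± 0.12 in OE1 and 0.16 ± 0.05 in ZH11 (SD, n = 3 lists each), and the groups did not overlap (two-sided exact permutation test, p = 0.1, which no split of 3 and 3 lists can go below). Among peaks of 300 to 600 bases the difference between the genotypes was −0.001 (exact permutation p = 1). Peaks in long regions were also longer in OE1 lists than in ZH11 lists on average, with medians of 731 ± 182 and 372 ± 145 bases (SD, n = 3 lists each), though OE1 replicate 2 at 528 lay below ZH11 replicate 1 at 537. Peaks of other placed regions were longer in OE1 lists too, with medians of 258, 234 and 257 bases in OE1 lists and 229, 186 and 199 bases in ZH11 lists, which did not overlap.

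The strongest long region by mean log2 enrichment over the 6 lists lay on chromosome 3 at 7344718 to 7347565. Its strongest peak had an enrichment of 13.3, 16.3 and 14.1 in OE1 lists and 12.2, 6.84 and 11.1 in ZH11 lists. It was close to 1 continuous peak, with 2825, 2671 and 2786 of 2848 bases covered in OE1 and 2743, 1491 and 2359 in ZH11. The next was barely long enough, with 1046 bases on chromosome 7 at 16820045 to 16821090, a single peak in every list with an enrichment of 15.8, 18.3 and 18.3 in OE1 and 10.4, 3.29 and 11.1 in ZH11. After the chromosome 3 end region followed one on chromosome 4 at 9840439 to 9844947 and one on chromosome 10 at 3195978 to 3197209, with mean enrichments of 11.4 ± 3.72 and 10.8 ± 2.82 (SD, n = 6 lists). Among long regions alone, length and strength were only loosely related: Spearman's rho between a region's length and its strongest enrichment was 0.15 to 0.24 within lists, over 11934 to 12575 regions. The length limit narrowed the range of lengths compared. Among placed regions under 200 bases the median strongest enrichment was 2.90 to 3.08 in OE1 lists and 2.99 to 3.28 in ZH11 lists. At 5000 bases or more it was 6.31 to 6.89 in OE1 lists and 5.03 to 5.77 in ZH11 lists. Of the 100 peaks of highest enrichment in each list, 55, 48 and 53 lay in long regions in OE1 lists and 54, 36 and 48 in ZH11 lists. Of all placed peaks, long regions held 22.1%, 26.1% and 20.4% in OE1 lists and 29.6%, 34.8% and 34.4% in ZH11 lists, so the count in ZH11 replicate 2 was close to that list's share of all peaks.

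Summit positions, also not used by the rule, showed how far the lists placed the strongest signal at the same point. In the 11734 regions held by all 6 lists, the summits of the strongest peaks lay a median of 79 to 93 bases apart between OE1 lists, 142 to 270 bases between ZH11 lists and 94 to 277 bases between the genotypes. Every pair that included ZH11 replicate 2 lay at 254 bases or more. Distances between genotypes exceeded those within genotypes by 18.8 bases on average (exact two-sided permutation of the genotype labels, p = 0.1, the smallest possible). Leaving out any 1 OE1 list turned this to between −18.2 and −11.8, and without ZH11 replicate 2 it was 26.5. All 6 summits fell within 100 bases of each other in 752 regions (6.41%), the 3 OE1 summits in 3994 (34.0%) and the 3 ZH11 summits in 1917 (16.3%). The strongest summit lay a median of 28.5% to 28.7% of the region's length from the nearer end in OE1 lists and 27.8% to 29.0% in ZH11 lists.

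Long regions occurred on all 12 chromosomes, from 817 on chromosome 6 to 1361 on chromosome 4. They made up 9.54% of the placed regions on chromosome 6 and 13.4% on chromosome 5, with the other chromosomes between. Per Mb up to the last peak, chromosome 6 had the fewest at 26.3 and chromosome 5 the most at 42.4. Each of the 378 intervals of 1 Mb that held a peak also held a long region, with a median of 30 per interval. The fullest, chromosome 3 from 13 to 14 Mb, held 112 long regions among 503 placed ones (22.3%). Chromosome 10 from 8 to 9 Mb and chromosome 5 from 10 to 11 Mb followed with 108 each.

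Neighbouring long regions were often close together. The gap between them had a median of 7.71 kb with quartiles at 1.34 and 35.5 kb, and 2802 gaps (22.3%) were under 1 kb. With a limit of 10000 bases between neighbours, chosen after seeing the spacing, 1109 long regions (8.81%) fell into 81 runs of 10 or more. The largest run had 36 long regions within 162 kb of chromosome 3, at 13385116 to 13546802, and a second of 31 followed at 13607789 to 13735048. A run on chromosome 5 at 9930693 to 10057964 held 25, and 1 on chromosome 4 at 12101459 to 12170096 held 24, which filled 49.8% of its span. Regions in these runs had a median length of 1288 bases, against 1353 in all other long regions. Their median covered share was 86.1%, 78.3% and 87.3% in OE1 lists and 74.0%, 35.9% and 58.2% in ZH11 lists, close to the 84.6%, 77.5% and 86.7% in OE1 lists and 71.9%, 37.6% and 56.6% in ZH11 lists of all other long regions.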

How the data were processed

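RNA m5C immunoprecipitation was measured in seedlings of OE1 and ZH11, with 3 pulled-down and 3 input libraries each. Per the labels, each of 6 deposited peak lists belongs to 1 pulled-down library and the input of the same replicate number. Per the submitters' processing notes, BWA, HISAT2, featureCounts and DESeq were used, with no version or role named. Neither the peak caller nor the build is given in the sources used here. The authors deposited, per peak, an enrichment ratio (fold), a −log10 q value and a summit position. The read depth is not given by the lists. The deposited grain count table has no gene positions and was not used here.

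Peaks were merged in Python 3.11.15 with pandas 2.3.3. A region of at least 1000 bases on a chromosome was kept. A list holds a region if it has a peak in it. Enrichment, on the log2 scale, and q were compared within each list by medians, with exact permutation tests over lists. Scripts were checked on simulated data. Alternatives covered the peak threshold, merging rule, length minimum, peak length and each list left out. The members, tests and regions to be described were chosen with earlier results of these data known. Regions were named by rule: the 10 longest, the longest per chromosome, the 5 of highest mean log2 enrichment, the 3 longest held by 1 genotype only, the 3 longest single peaks, and 3 on either side of the length limit. Chromosome ends and dense runs were added after values were seen.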

Additional observations from a re-analysis of the deposited data

Results flagged for a closer look

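Outside the chromosomes, 246 merged regions of 1000 bases or more lay on unplaced contigs, among 2682 contig regions in all. The rule leaves these contigs out, so the comparisons above do not use them. No control sample was available for this count.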

How the results depend on the processing

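The number of long regions depended most on which peaks entered the merge: 6080 with peaks of −log10 q of at least 5 and 6456 from the ZH11 lists alone, against 12581. It ran from 10805 to 12345 with 1 list left out. With at least 50% of the bases required in each list, 2234 regions counted as held by all 6. Every OE1 list covered more bases than any ZH11 list in 4327 long regions with lists of equal peak number, against 5489 (43.6%) with the full lists. The share over all placed regions was 22.6% with the full lists and was not computed for lists of equal peak number. The OE1 minus ZH11 difference in the share of covered bases was −5.26 to −3.29 percentage points with a list left out and −0.31 with lists of equal peak number, an alternative chosen after seeing the data. The within-list enrichment difference was 0.24 to 0.32 with a list left out, where 5 lists cannot give an exact permutation p below 0.0625. It was 0.03 (exact permutation p = 0.188) for peaks of 300 to 600 bases and 0.08 (exact permutation p = 0.0625) against other regions held by all 6 lists. The −log10 q difference was 1.88 (exact permutation p = 0.0312) for the strongest peak of each region. For peaks of 300 to 600 bases the −log10 q difference was only 0.03, positive in 1 of 6 lists. Against other regions held by all 6 lists it was 0.18, positive in 4 of 6 lists (exact permutation p = 0.125). The genotype difference in enrichment was −0.001 for peaks of 300 to 600 bases and 0.18 to 0.29 with a list left out. The summit difference ran from −18.2 to 81.6 with a list left out. The causes were not tested. Of 67 alternatives, 50 kept direction and call, or moved a value by less than its limit. For the genotype and summit differences the smallest possible p lies above the threshold used, so their call could not change. The 50 also include the −log10 q difference of 0.03 for peaks of 300 to 600 bases and the count of 4327 against 5489. The tally is therefore not a measure of how stable the results are.

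With the replicate number as a block, pairing lists of the same number, the genotype difference in enrichment stayed at 0.24 (exact sign-flip permutation p = 0.25, the smallest 3 pairs can give). Deviations of same-numbered lists from their group means correlated at −0.02 to 0.00 over long regions, so the numbers were not taken to pair the lists. Read depth is unknown, so how far it limits peak length and number was not tested.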
